A study of Mus musculus with 13 samples.

Results

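Glul, Gls2 and Oat are 3 of the 100 genes of the panel and were taken by their symbols from the count table of every section and from the lists of transcript positions. All 3 passed the filter on low counts, and together they held 919517 of 55744933 transcripts assigned to cells, or 1.65%. Male C57BL/6 mice aged 2 months underwent partial hepatectomy, after which the remaining liver regrows, and frozen tissue of the regrown lobes was sectioned. Molecular Cartography of Resolve Biosciences then located single RNA molecules in place by repeated rounds of fluorescent labelling. No label names a genotype or another treatment. After surgery, 2 sections each stand for 0 h, for 24 h, for 48 h and for 72 h, while 14 d has 3 sections and 3 mo and 6 mo have 1 each. The stated age is the same for every section, and for the last of these times the effect of ageing cannot be told apart from that of time since surgery.

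Glul encodes glutamine synthetase, which joins ammonia to glutamate in the innermost ring of hepatocytes around the central vein, where Wnt signalling keeps it on. Gls2 encodes the liver form of glutaminase, which releases ammonia from glutamine in hepatocytes near the portal vein and so feeds the urea cycle there. Oat encodes ornithine aminotransferase of the mitochondria, which turns ornithine towards glutamate and is known from central hepatocytes, beside and within the Glul ring. Ammonia that escapes the portal urea cycle is thus bound as glutamine just before blood leaves the lobule.

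Sections held 4586 to 15817 cells and 1678015 to 9619206 counts in cells. The 2 unnumbered sections of 24 h share a slide position and were summed, which gave 12 libraries. Of 3 slides, slide 3 carried all 14 d sections and nothing else, so there the effect of the slide cannot be told apart from that of time. Both 0 h sections have a slide mate from 72 h, and section 1 also shares slide 1 with 24 h, 48 h and 3 mo, while section 2 shares slide 2 with 6 mo. No label says that sections came from different animals, so p-values may measure technical spread only. All 6 fixed genes of central hepatocytes and all 5 of portal hepatocytes were in the panel and at 9.59% to 35.4% and 18.9% to 34.4% of the counts of a section. Genes of endothelial cells (4 of 6 in the panel, Pecam1, Wnt2, Wnt9b and Rspo3) summed to 0.548% to 0.630% of counts at 14 d and 0.203% to 0.291% at 0 h, and macrophage genes (3 of 4, Adgre1, Lyz2 and Ptprc) to 0.832% to 0.966% at 14 d and 0.469% to 0.563% at 0 h. None of these endothelial or macrophage genes was at 0 in any section, and their part in the results below was not tested.

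The genes lie apart in the mouse genome. RefSeq places Glul at chr1:153899929-153909723, Oat at chr7:132557475-132576398 and Gls2 at chr10:128194635-128210004 (build GRCm38.p6). Promoter sequences, from 250 bases before to 50 after the start, were found for 2 of the 3 genes, Glul and Oat, the central pair, and are shown because the place of these transcripts in the lobule is what the values below turn on. Capitals mark the letters CCAAT, or their reverse complement ATTGG, which each promoter holds at 2 places. Both are written 5′ to 3′ along the gene, Glul from chr1:153899679-153899978 (plus strand) and Oat from chr7:132576349-132576648 (minus strand).
Glul promoter: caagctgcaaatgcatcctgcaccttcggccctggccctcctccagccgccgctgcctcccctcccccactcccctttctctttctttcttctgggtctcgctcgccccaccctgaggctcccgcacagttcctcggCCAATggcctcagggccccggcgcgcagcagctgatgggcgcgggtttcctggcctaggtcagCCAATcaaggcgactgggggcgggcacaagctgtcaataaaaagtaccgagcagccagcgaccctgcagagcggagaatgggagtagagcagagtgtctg
Oat promoter: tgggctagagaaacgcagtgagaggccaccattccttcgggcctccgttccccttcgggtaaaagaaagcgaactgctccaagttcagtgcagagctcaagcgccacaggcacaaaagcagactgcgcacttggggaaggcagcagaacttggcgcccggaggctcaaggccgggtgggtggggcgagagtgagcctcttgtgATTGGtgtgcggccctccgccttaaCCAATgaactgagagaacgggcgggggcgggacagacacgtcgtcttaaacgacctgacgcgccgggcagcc
In Glul both matches are on the gene's own strand and begin at -113 and -50 from the start, and in Oat one begins at -47 on the opposite strand and one at -22 on the gene's own. CCAAT was found on either strand in 37.4% of 32851 mouse promoters of the same length, so that it is a common word. The letters CTTTG followed by AA, AT, TA or TT, words that Wnt-responsive TCF/LEF factors are known to bind, were at 0 places in either promoter on either strand and in 16.9% of all promoters. These words share their first 5 letters and do not overlap CCAAT.

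Oat showed the largest shift of the 3 genes in level, and it came at 24 h. It stood at 28229 CPM in the 24 h library, against 6750 and 3313 CPM in the 0 h libraries, where CPM are counts scaled to one common library size by TMM, which uses genes with typical ratios. Both 24 h sections were high, with Oat at 2.63% and 2.84% of their counts, against 0.542% and 0.206% at 0 h. The rise was 2.49 ± 0.48 in log2 (SE, 1 library against n = 2, edgeR quasi-likelihood test, Benjamini-Hochberg adjusted p = 0.00287), and 15.2% of 99 genes tested were called higher in that comparison. With the slide as a block it stood at 2.22 (edgeR, adjusted p = 0.00359), and within slide 1 the 24 h library lay 2.06 above section 1 of 0 h. Leaving out single sections gave 2.16 to 3.26. The sum of the central hepatocyte genes stood at 11.5% to 16.6% of counts at 24 h and 27.1% to 35.4% at 0 h, and the endothelial genes at 0.427% to 0.453% and 0.203% to 0.291%. The central sum was lower at 24 h and Oat was higher, and a sum need not hold for each gene. The part of these sums in the rise of Oat was not tested. Lect2, which is in that central list, had a Pearson correlation of 0.82 with Oat over the 12 libraries. The spread of the single 24 h library was taken from the other times, and fewer cells of a type and less RNA per cell cannot be told apart in such sums.

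After 24 h Oat was lower again. It had 6714 and 11525 CPM at 48 h, 5654 and 3298 CPM at 72 h, 7350, 5808 and 3986 CPM at 14 d, 6137 CPM at 3 mo and 2067 CPM at 6 mo. None of these times passed against 0 h, the differences running from -1.28 ± 0.53 at 6 mo (edgeR, adjusted p = 0.0906) to 0.86 ± 0.41 at 48 h (0.171), where edgeR called 12.1% of genes lower and 11.1% higher in each of these 2 comparisons. Other settings did call Oat, higher at 48 h with total-count scaling (1.51, edgeR, adjusted p = 0.0409) and relative to cell number (1.57, 0.0455), and higher at 14 d relative to cell number (1.68, 0.0118). In these 3 comparisons 40, 32 and 75 of 99 genes were called higher. Oat stood 0.59, 0.60 and 0.11 in log2 above their median gene. At 6 mo it was called lower without section 2 of 0 h (-1.70, edgeR, adjusted p = 0.0408) or section 3 of 14 d (-1.28, 0.041). Set against 24 h, Oat was lower at 72 h by -2.66 ± 0.48 in log2, at 14 d by -2.30 ± 0.43, at 3 mo by -2.20 ± 0.60 and at 6 mo by -3.77 ± 0.64, where edgeR called 7.07%, 22.2%, 8.08% and 11.1% of genes lower. Between 48 h and 24 h the difference of -1.63 ± 0.48 did not pass (edgeR, adjusted p = 0.0812, 2.02% lower). At 6 mo Oat was also below 48 h (-2.14 ± 0.56, edgeR, adjusted p = 0.0106, 20.2% of genes lower) and 14 d (-1.47 ± 0.52, 0.0438, 15.2%), but 6 mo is a single section on slide 2, where the 0 h section was low too, at 3313 CPM.

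Glul was lowest at 14 d. It stood at 4266, 3778 and 2906 CPM in the 14 d libraries, against 8622 and 13109 CPM at 0 h. The fall was -1.57 ± 0.32 in log2 (SE, n = 3 against 2, edgeR, adjusted p = 0.00129), with 13.1% of genes called lower, and leaving out single sections gave -1.83 to -1.25. That fall depended on the scaling. With total-count scaling it was -0.76 (edgeR, adjusted p = 0.108) and relative to cell number 0.0024. The median gene stood at 0.07 with TMM, 0.83 with total counts and 1.57 relative to cell number, and Glul lay 1.65, 1.59 and 1.57 below that median in log2. In transcripts per 100 cells Glul was at 351, 258 and 161 in the 14 d libraries and at 237 and 276 in those of 0 h, so that those groups overlapped. The central hepatocyte genes, which leave out Glul and Oat, summed to 15.7% to 16.5% of counts at 14 d and 27.1% to 35.4% at 0 h, and their part in the fall was not tested.

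At the earlier times Glul was uneven. It had 11399 CPM at 24 h, 4662 and 10111 CPM at 48 h and 5972 and 4420 CPM at 72 h, and then 5660 CPM at 3 mo and 7632 CPM at 6 mo. The difference at 72 h, -1.06 ± 0.35 in log2, did not pass (edgeR, adjusted p = 0.0581, 6.06% of genes lower and 9.09% higher). It passed in DESeq2, at -1.28 (adjusted p = 0.0123), with TMM without Cyp2e1 (-1.19, edgeR, adjusted p = 0.0396), without the filter (-1.12, 0.0396) and with all listed transcripts (-1.13, 0.0477). It also passed with the 14 d sections as 1 library (-1.24) and in 6 of the 13 fits that left out 1 section. Without section 1 of 0 h it was -1.44. It did not pass with total-count scaling (-0.59, edgeR, adjusted p = 0.322), by cell number (-0.09, 0.875) or with the slide as a block (-1.10, 0.128). At 24 h it was 0.07 ± 0.43, at 48 h -0.56 ± 0.35, at 3 mo -0.94 ± 0.45 and at 6 mo -0.51 ± 0.44, none of which passed. At 48 h Glul was called lower without section 1 of 0 h (-0.98), while total-count scaling gave 0.21 and scaling by cell number 0.27. Against times other than 0 h, 14 d was lower than 24 h (-1.64 ± 0.38, edgeR, adjusted p = 0.0039, 22.2% of genes lower) and 48 h (-1.02 ± 0.32, 0.0188, 25.3%), and 6 mo was higher than 14 d (1.06 ± 0.38, 0.0444, 19.2% higher). The last pair of calls ended with total-count scaling (-0.97 and 0.58, edgeR, adjusted p = 0.0534 and 0.303) and in DESeq2 (0.0588 and 0.056).

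With TMM scaling, all sections, the filter on low counts and the 24 h sections summed, Gls2 did not pass against 0 h at any time. It had 2366 and 1571 CPM at 0 h, 1162 CPM at 24 h, 2778 and 2299 CPM at 48 h, 1617 and 1607 CPM at 72 h, 2818, 3574 and 2824 CPM at 14 d, 2876 CPM at 3 mo and 1704 CPM at 6 mo. At 14 d the difference from 0 h was 0.64 ± 0.27 in log2 (edgeR, adjusted p = 0.0776, 15.2% of genes higher). It passed with total-count scaling, at 1.36 (edgeR, adjusted p = 0.00631), relative to cell number, at 2.11 (0.000524), and in DESeq2, at 0.64 (0.0354). Those settings called 37, 75 and 21 of 99 genes higher at 14 d. The difference at 14 d also passed with the 24 h sections as 2 libraries (0.76, edgeR, adjusted p = 0.0227), without the filter (0.69, 0.0481) and with all listed transcripts (0.83, 0.0235). With TMM, total counts and cell number Gls2 stood 0.57, 0.53 and 0.54 above the median gene at 14 d. At 24 h Gls2 was at -0.76 ± 0.37 (edgeR, adjusted p = 0.157, 7.07% lower), and it was called lower there with the 24 h sections as 2 libraries (-0.78, edgeR, adjusted p = 0.034) and when single sections were left out, namely 0 h section 2 (0.0342), 24 h section 1 (0.0231) and 48 h section 1 (0.0283). It was called higher at 48 h with total-count scaling (1.01, edgeR, adjusted p = 0.035) and at 3 mo without section 1 of 0 h (0.98). With total-count scaling at 48 h, 40 of 99 genes were called higher, and Gls2 lay 0.09 above the median gene. From the low level of 24 h it was higher at 14 d (1.40 ± 0.37, 0.0059, 16.2%) and at 3 mo (1.31 ± 0.42, 0.0447, 6.06%), and 14 d was also above 72 h (0.93 ± 0.27, 0.0146, 10.1%). With total-count scaling the call between 3 mo and 24 h ended for Gls2 (edgeR, adjusted p = 0.0764) and for Oat (0.117).

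**Figure D1:**
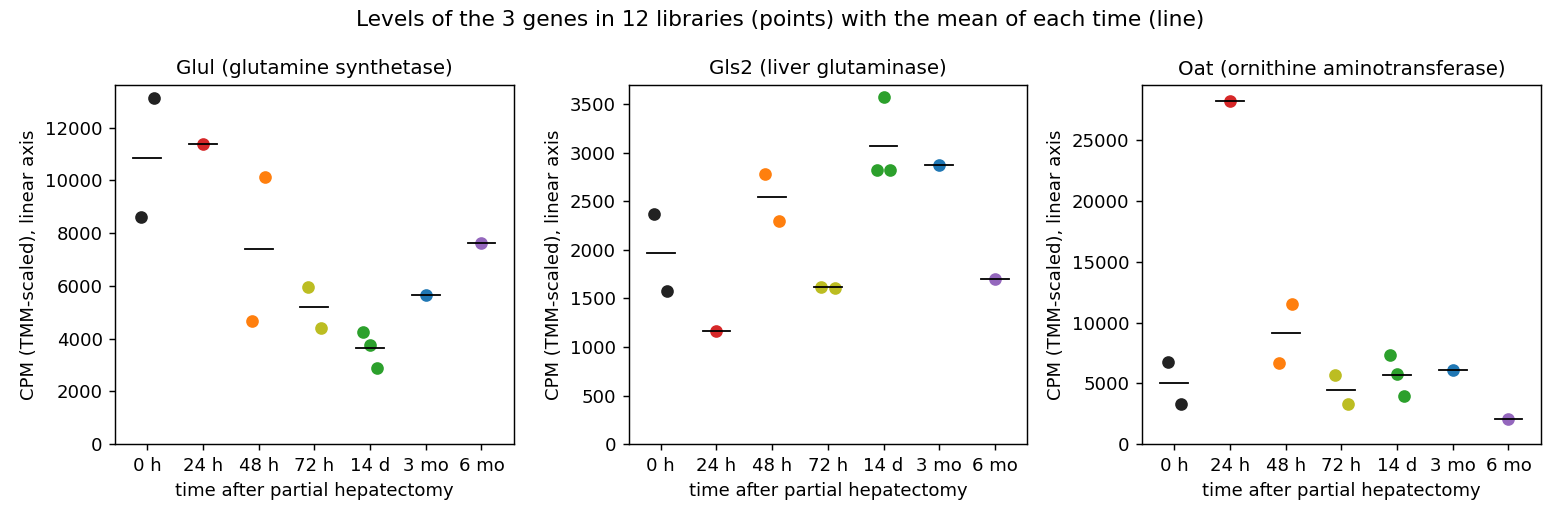
Level of Glul, Gls2 and Oat in CPM (TMM-scaled, linear axis from 0) at the 7 times after partial hepatectomy. Points are the 12 libraries and lines are means, with Oat at 28229 CPM at 24 h and Glul at 2906 to 4266 CPM at 14 d.

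Ordered by mean level, Glul ran 24 h, 0 h, 6 mo, 48 h, 3 mo, 72 h and 14 d, from 11399 to 3650 CPM. Gls2 ran 14 d, 3 mo, 48 h, 0 h, 6 mo, 72 h and 24 h, from 3072 to 1162 CPM, and Oat 24 h, 48 h, 3 mo, 14 d, 0 h, 72 h and 6 mo, from 28229 to 2067 CPM. No neighbouring times in any of these orders passed the test. Glul and Gls2 had a Pearson correlation of -0.64 over the 12 libraries, Glul and Oat 0.30, and Oat and Gls2 -0.12. These share the scaling of each library and are given as descriptions. By the same measure the panel genes most like Glul were Cps1 (0.88), which starts the urea cycle, Arg1 (0.79), which ends it, and the complement gene C6 (0.78). Those most like Gls2 were Csad of taurine synthesis (0.81), the respiratory chain gene Ndufb10 (0.67) and the hypoxia factor gene Epas1 (0.63). Those most like Oat were the hepatocyte chemotaxin gene Lect2 (0.82), the ligand Wnt2 (0.78) and the Wnt enhancer Rspo3 (0.75).

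Ratios of 2 genes within a section do not depend on the scaling. For each Gls2 transcript there were 1.51, 1.06 and 1.03 of Glul at 14 d, against 3.64 and 8.34 at 0 h. No test was run on these ratios, and 14 d is alone on slide 3. The other times gave 6.31 and 16.5 at 24 h, 1.68 and 4.40 at 48 h, 3.69 and 2.75 at 72 h, 1.97 at 3 mo and 4.48 at 6 mo. Oat over Glul was 3.28 and 1.90 at 24 h and 1.72, 1.54 and 1.37 at 14 d, against 0.783 and 0.253 at 0 h, and at 6 mo it was 0.271. Oat over Gls2 was 20.7 and 31.2 at 24 h, against 2.85 and 2.11 at 0 h, and between 1.21 and 5.01 in all later sections. Probe efficiency is unknown, so that these ratios are compared between sections and not read as amounts.

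In space the 3 genes kept to their own parts of the lobule at every time. For this, transcripts were counted in square tiles of 400 coordinate units, and the tiles of each of the 12 sections with positions were ranked from portal to central by 7 central genes (Cyp2e1, Cyp1a2, Lect2, Axin2, Lgr5, Cyp27a1, Tbx3) against 5 portal ones (Pck1, Arg1, Ass1, Cps1, Hsd17b13). Glul, Gls2 and Oat were in neither list. No source used here states how long that unit is. Cut into 3 equal zones, the most central zone held 72.0% to 97.1% of a section's Glul and 82.7% to 94.3% of its Oat but 1.77% to 8.40% of its Gls2, of which 54.7% to 68.3% was in the most portal zone.

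**Figure D2:**
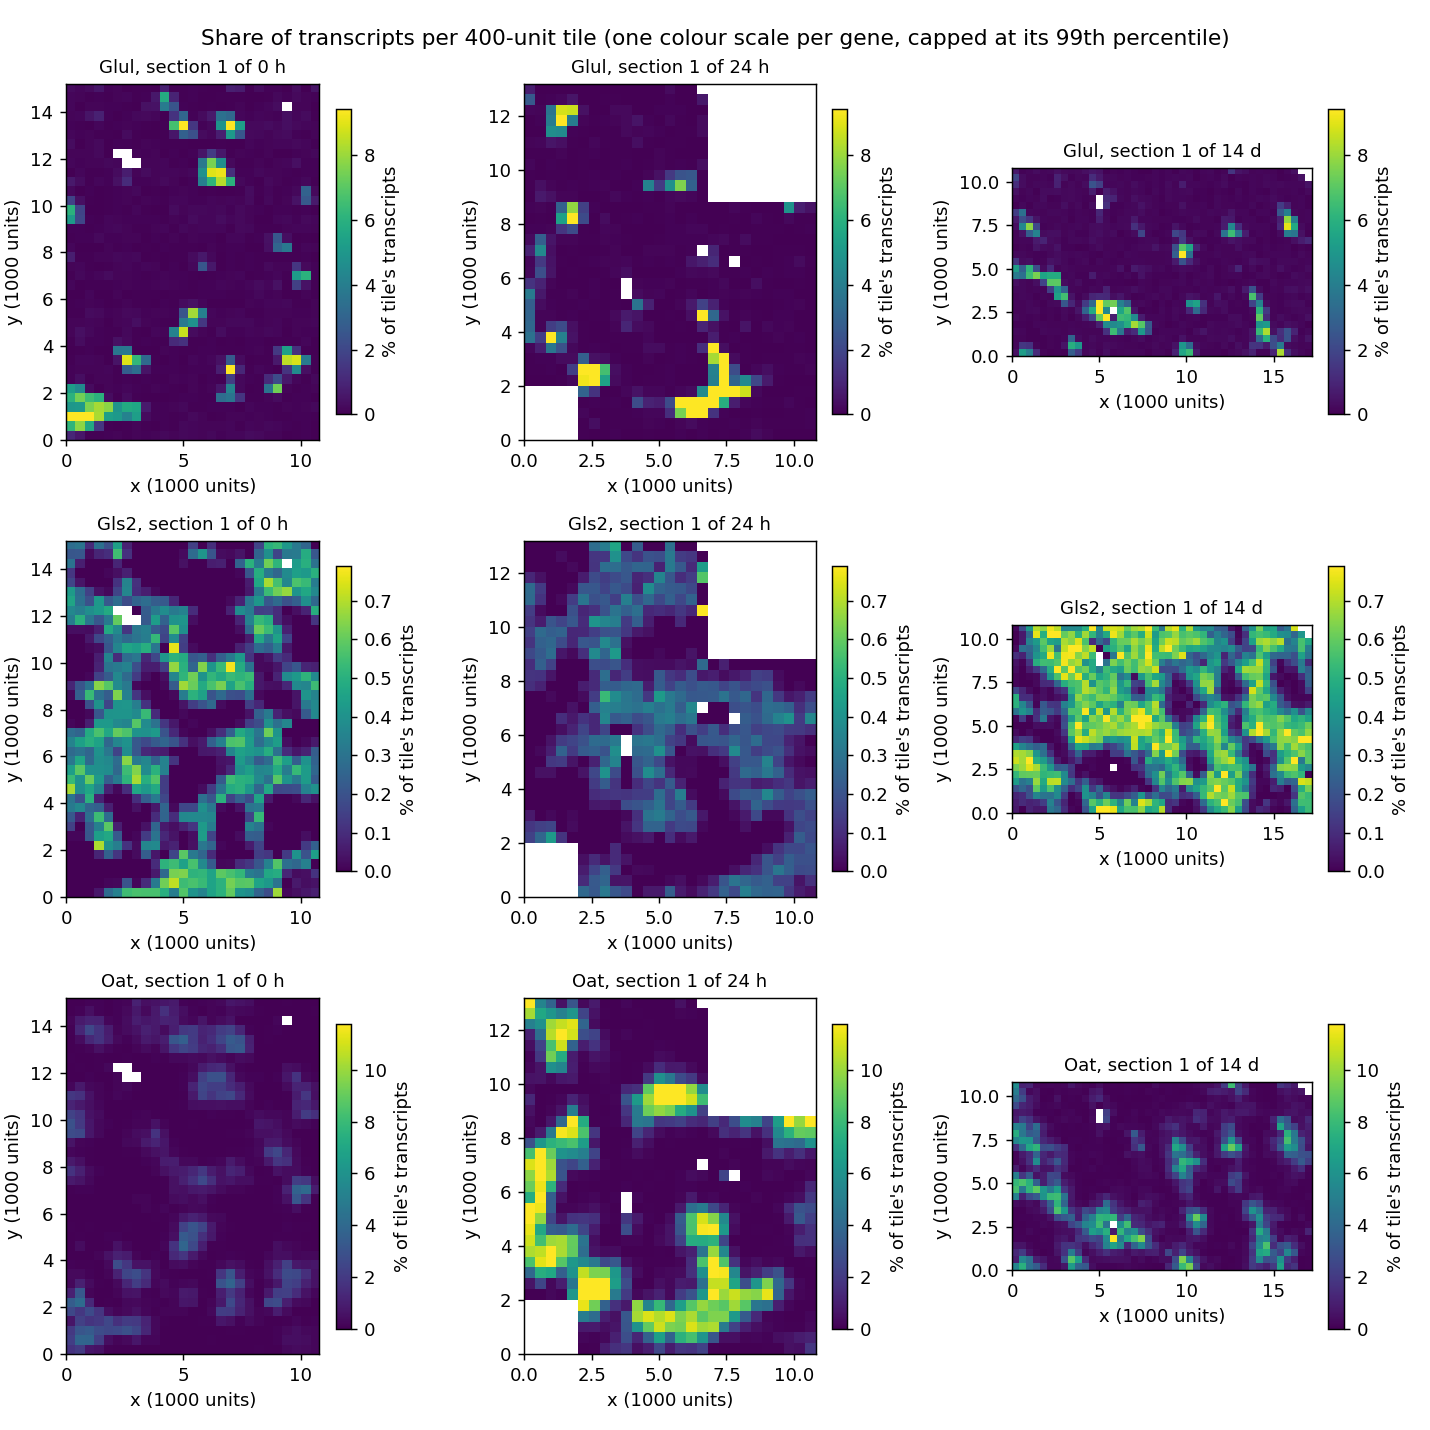
Share of transcripts from Glul (top), Gls2 (middle) and Oat (bottom) in tiles of 400 units in section 1 of 0 h, 24 h and 14 d, with axes in steps of 1000 coordinate units and white where a tile held under 50 transcripts. Glul forms small patches, Oat surrounds them and is brightest at 24 h, and Gls2 fills the tissue between.

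Glul was the most concentrated gene in each of the 12 sections. When the richest 10% of tiles were picked with one set of transcripts and measured with the others, they held 82.8% and 87.6% of Glul at 0 h, 84.5% and 84.4% at 24 h, 81.8% and 85.3% at 48 h, 74.9% and 84.3% at 72 h, 65.6% and 60.9% at 14 d, 84.8% at 3 mo and 72.8% at 6 mo. That share ranked 1 of 62 genes in every section and was lowest at 14 d. Oat ranked 2 to 4, with 42.2% to 74.7%, its lowest values being those of 24 h, and Gls2 had 17.7% to 25.2%. With the richest 5% of tiles in place of 10%, Glul ranked 2 of 62 in section 2 of 24 h, at 47.5%, and 1 in the other sections. Along 10 equal bins of the ranked tiles Glul was lowest in bins 3 to 7 and not at the portal end. In all 12 sections its share in bin 1, the most portal, exceeded that in bin 6, for example 0.188% against 0.158% in section 2 of 14 d and 0.147% against 0.0887% in section 1 of 0 h.

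**Figure D3:**
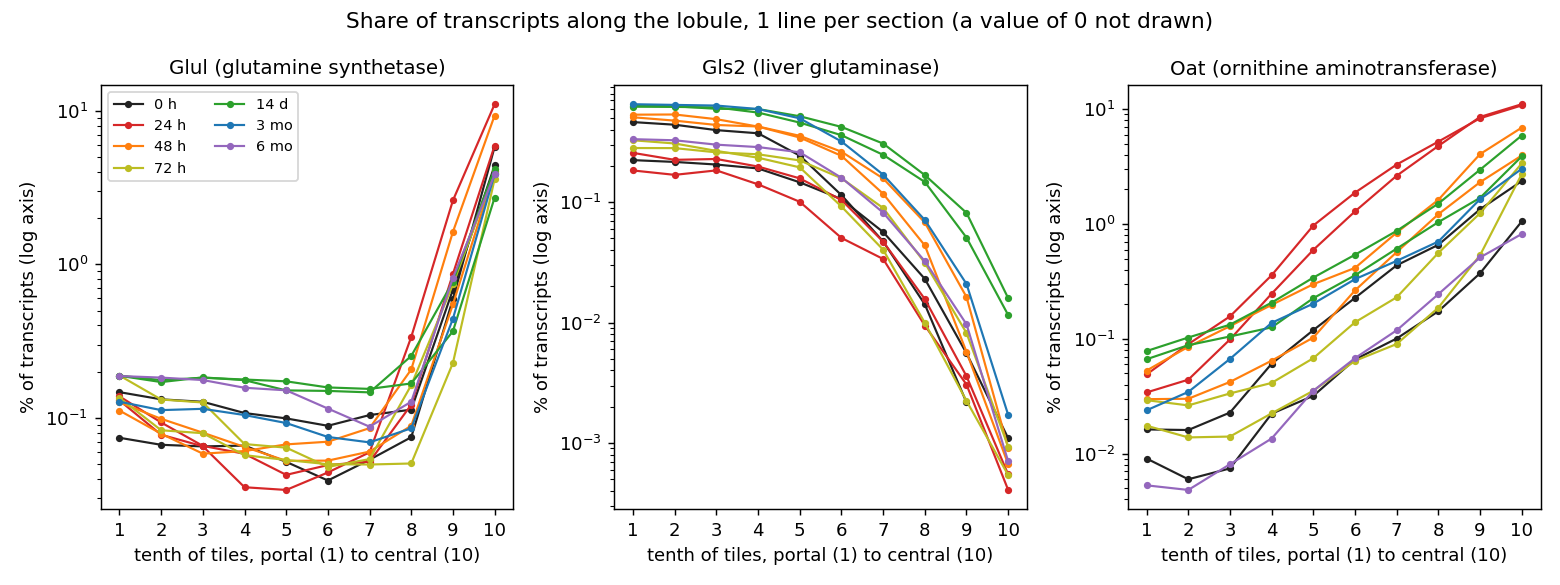
Share of transcripts (percent, log axis) in 10 equal bins of 400-unit tiles from portal (1) to central (10), with 1 line per section coloured by time. Glul jumps in bins 9 and 10, Oat climbs over the bins with 24 h on top, and Gls2 declines towards the centre, least so at 14 d.

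Oat at 24 h was highest at the centre. Its share of transcripts in the central zone was 7.80% and 7.66% at 24 h, against 1.38% and 0.509% at 0 h, while in the portal zone it was 0.0671% and 0.104%, against 0.0204% and 0.00812%. The log2 ratio of central to portal share was 6.51 at 24 h and 5.91 at 0 h, a difference of 0.61 ± 0.41 that did not pass (limma, adjusted p = 0.346, 3.23% of 62 genes called higher). At 48 h, where limma called 38.7% of genes higher and 4.84% lower, Oat had central shares of 2.36% and 4.0% and a difference of -0.25 ± 0.33, with Glul at 0.42 ± 0.58 and Gls2 at 0.73 ± 0.65, and none of the 3 passed. None passed at 72 h either (3.23% lower and 0.0% higher), with Glul at -0.80 ± 0.58, nor at 3 mo (1.61% lower, 0.0% higher) or 6 mo (6.45% lower, 0.0% higher), with Glul at -0.64 ± 0.71 and -1.18 ± 0.71. The gradient of Oat was lower at 14 d, with central shares of 3.11% and 2.02% and portal shares of 0.113% and 0.0888%. Its log2 ratio was 4.63 at 14 d and 5.91 at 0 h (difference -1.27 ± 0.33, n = 2 against 2, limma, adjusted p = 0.0229), with 11.3% of genes called lower.

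That call was not firm. It ended with tiles of 800 units (-0.83, limma, adjusted p = 0.0537), without section 1 of 0 h (0.0801) and without section 1 (0.0882) or section 2 (0.227) of 14 d, and the difference in the rank correlation of Oat with the central score (Fisher z) was 0.04, not below 0. Glul and Gls2 did not pass at 14 d, although other settings called each of them. Glul was called lower with Cyp2e1 left out of the shares (-2.08, limma, adjusted p = 0.043). It was also called lower without section 1 or section 2 of 48 h (-1.53 each). The difference in its rank correlation with the central score was 0.10, not below 0. Glul had central shares of 1.49% and 0.960% and portal shares of 0.182% and 0.182% at 14 d, against 1.61% and 2.05% and 0.134% and 0.0672% at 0 h, a difference of -1.53 ± 0.58 (limma, adjusted p = 0.0751). Gls2 had 0.0881% and 0.107% in the central zone at 14 d, against 0.00782% and 0.0129% at 0 h, a difference of 2.13 ± 0.65 (0.0523). Median transcripts per tile were 9051 and 8754 at 14 d and 5000 and 4935 at 0 h, and their part was not tested.

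Distance from the Glul ring was measured in smaller tiles of 200 units, of which the 5% with the highest Glul share in a section were called Glul-rich. Oat was highest in these tiles and lower far from them in each of the 12 sections. In section 1 of 24 h it made up 11.7% of transcripts in Glul-rich tiles, 9.72% within 300 units, 5.91% at 300 to 600 units, 2.63% at 600 to 900 units and 0.289% beyond 1500 units. In section 1 of 0 h the same places held 2.94%, 1.87%, 0.721%, 0.282% and 0.207%, so that the 24 h section was above the 0 h section at each of these distances. The log2 ratio of near (within 300 units) to far (1200 units or more) was 3.18 to 4.94 over the 12 sections and ranked Oat 1 of 61 genes in 11 of them and 2 in section 1 of 48 h. With all sections and tiles of 200 units it did not pass at any time, with differences of 0.18 ± 0.49 at 24 h, 1.09 ± 0.40 at 48 h (limma, adjusted p = 0.0744, 27.9% of genes higher), 1.10 ± 0.40 at 72 h (0.178, 1.64%), -0.26 ± 0.40 at 14 d (4.92% lower), -0.48 ± 0.49 at 3 mo and 0.68 ± 0.49 at 6 mo. At 24 h, 3 mo and 6 mo limma called 0 of 61 genes (0.0%) in this measure, with 16, 4 and 14 at an unadjusted p under 0.05. Oat was called higher at 48 h with tiles of 400 units (1.34, limma, adjusted p = 0.0208) and without section 2 of 0 h (1.70, 0.0124), and at 72 h without that section (1.71, 0.0352).

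Gls2 was nearly missing beside the Glul ring, and less so at 14 d. Tiles within 300 units held 226 and 459 Gls2 transcripts in the 14 d sections, 0.0292% and 0.0492% of all transcripts there, against 9 and 10 at 0 h, 0.00163% and 0.00199%. Over the other sections the count was between 0, in section 2 of 24 h, and 41, at 3 mo. Near over far was -3.79 in log2 at 14 d and -6.32 at 0 h (difference 2.53 ± 0.59, n = 2 against 2, limma, adjusted p = 0.0292), with 13.1% of 61 genes called higher. Gls2 beyond 1500 units was 0.560% and 0.546% at 14 d and 0.285% and 0.175% at 0 h, so that both places were higher at 14 d in share. The call ended when Glul-rich meant the top 10% of tiles (1.95, limma, adjusted p = 0.33), with tiles of 400 units and near as within 600 (1.58, 0.142), and without either section of 0 h (0.0948 and 0.0627) or of 14 d (0.0679 and 0.162). Positions of section 3 of 14 d were not analysed here, so the comparison rests on 4 sections.

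**Figure D4:**
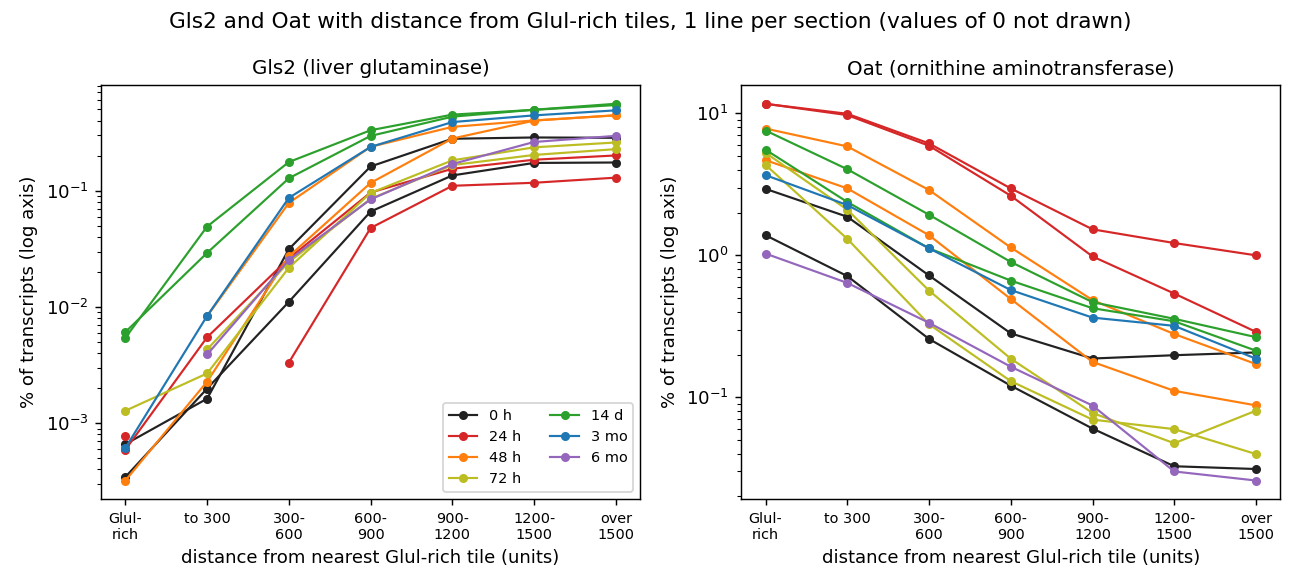
Share of transcripts from Gls2 (left) and Oat (right) in percent (log axis) against distance from the nearest Glul-rich tile in coordinate units, with 1 line per section coloured by time. Gls2 climbs with distance and is highest beside the ring at 14 d, at 0.0292% and 0.0492%, and Oat is lower far out and is highest at 24 h.

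Single cells showed the same arrangement. Cells differ in depth, so each cell with at least 200 transcripts was thinned to 200, which kept 57.7% to 94.5% of cells. Glul-rich cells, with 10 or more Glul transcripts, were 5.54% and 6.15% of cells at 0 h, 4.97% and 9.36% at 24 h, 3.87% and 8.99% at 48 h, 4.76% and 3.98% at 72 h, 4.11%, 2.52% and 1.65% at 14 d, 4.17% at 3 mo and 4.93% at 6 mo. The 3 sections of 14 d were below both of 0 h after thinning. Without thinning they had 7.81%, 5.39% and 3.56% Glul-rich cells at 14 d, against 5.87% and 6.35% at 0 h, and the groups overlapped. The paired sections of 24 h and of 48 h lay far apart. Cells with 10 or more Oat transcripts were 22.3% (exact 95% binomial interval 21.2% to 23.4%) and 23.4% (22.1% to 24.8%) at 24 h, against 1.14% (0.923% to 1.39%) and 0.0460% (0.0125% to 0.118%) at 0 h, where intervals cover counting error only. Without thinning these shares were 26.4% and 27.3% at 24 h, against 6.26% and 1.28% at 0 h. After thinning no cell in any section had 10 of Gls2, and at 6 mo none of 6181 cells had 10 of Oat. Without thinning 210, 265 and 54 cells of the 14 d sections had 10 or more of Gls2, against 0 in both 0 h sections, and 30 cells at 6 mo had 10 or more of Oat (0.280%).

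Glul-rich cells held more Oat than other cells in all 13 sections and nearly no Gls2. They averaged 22.2 and 21.8 Oat transcripts per 200 at 24 h, against 5.90 and 2.58 at 0 h, and the other cells averaged 4.26 and 3.73, against 0.717 and 0.227. Of Glul-rich cells, 97.7% and 97.1% were also Oat-rich at 24 h, against 14.8% and 0.748% at 0 h. Of Oat-rich cells, 21.8% and 38.8% were also Glul-rich at 24 h, against 71.9% of 96 and 100% of 4 at 0 h. That share was 50.2% and 65.4% at 48 h, 69.2% and 79.4% at 72 h, 42.3%, 43.8% and 34.7% at 14 d and 44.9% at 3 mo. At 14 d Oat in Glul-rich cells was 14.1, 11.9 and 9.49 per 200, above both 0 h sections, and at 6 mo it was 2.00. Gls2 was seen in 0% to 1.07% of Glul-rich cells of a section and in 18.0% to 48.9% of the other cells. In section 2 of 14 d it was in 4 of 373 Glul-rich cells, and in section 1 of 0 h in 0 of 467, which allows up to 0.642% of such cells to show a transcript at this thinned depth and sets no limit on cells that express the gene.

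Counted by at least 1 transcript, the pairs stood as follows. Cells with both Glul and Oat were 1.30 to 2.69 times as many as the product of their shares gives, cells with both Glul and Gls2 0.462 to 0.875 times, and cells with both Oat and Gls2 0.144 to 0.647 times. Without thinning these ran from 1.13 to 2.19, from 0.498 to 1.04 and from 0.244 to 0.867. The value of 1.04, above the product, was that of Glul and Gls2 at 6 mo. After thinning, Oat and Gls2 shared cells most often at 14 d, at 0.647, 0.642 and 0.602 times the product in its 3 sections, against 0.193 and 0.239 at 0 h. The method behind the cell outlines is unknown here. Cells with 5 or more transcripts of the macrophage gene Adgre1 held Gls2 in 11.1% to 60.0% of cases per section and Oat in 14.3% to 72.9%, at median depths of 251.5 to 409.5 counts against 344 to 654 in other cells. Their part in the shares counted from 1 transcript was not tested, and the counts of rich cells do not use those shares.

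**Figure D5:**
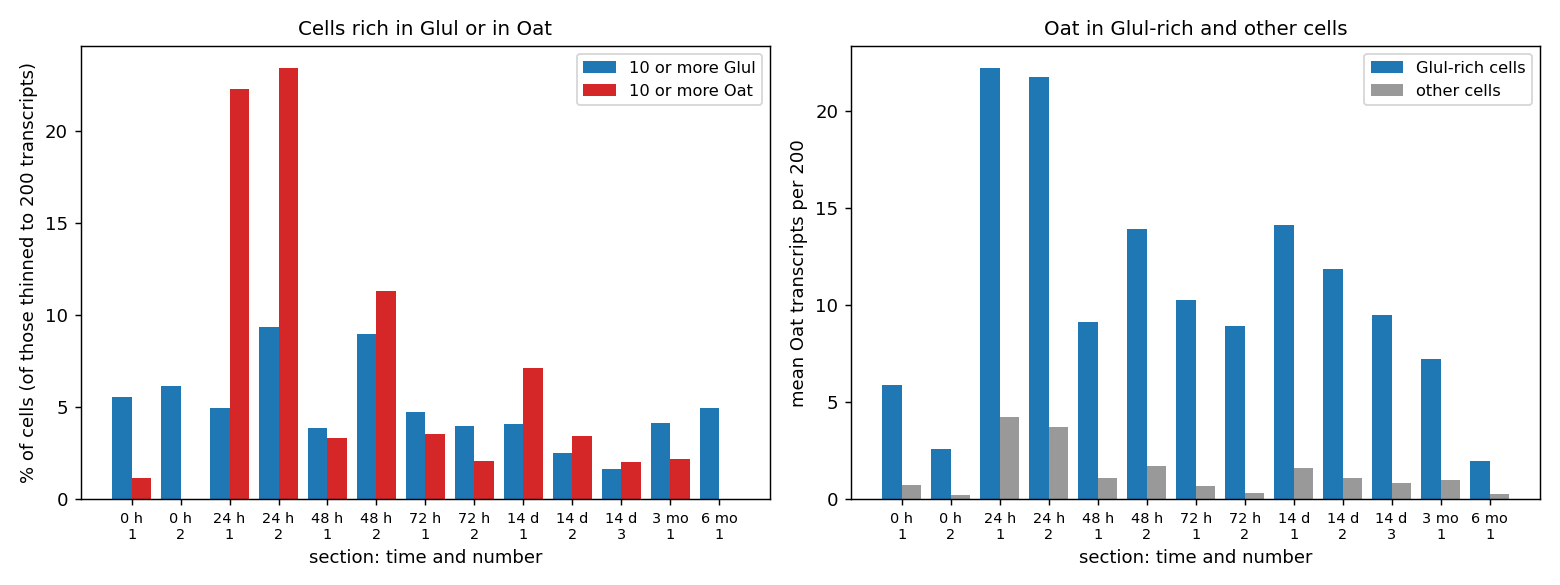
Left, percent of cells with 10 or more Glul (blue) or Oat (red) transcripts after thinning to 200 per cell, by section. Right, mean Oat transcripts per 200 in Glul-rich (blue) and other (grey) cells. Oat-rich cells reach 22.3% and 23.4% at 24 h, and Oat is higher in Glul-rich than in other cells in all 13 sections.

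Of the other nitrogen and amino acid genes listed for comparison, 7 of 23 were in the panel (Cps1, Ass1, Arg1, Prodh, Hpd, Csad and Slc16a10). At 24 h 0 were higher and 1 lower, Csad, at 38.6 CPM against 237 CPM (-2.62 ± 0.77, edgeR, adjusted p = 0.0239), where edgeR called 15.2% of all genes higher and 7.07% lower. At 48 h 3 were lower, the proline oxidase gene Prodh (-1.05 ± 0.30), the tyrosine-degrading Hpd (-0.90 ± 0.24) and Cps1 (-0.82 ± 0.24), where edgeR called 12.1% of genes lower. At 72 h 1 was lower, Cps1 (-0.74 ± 0.24, with 6.06% of all genes lower), and at 14 d 2 were, Cps1 (-1.08 ± 0.22) and Arg1 (-1.06 ± 0.22), with 13.1% of all genes lower. Counts of 1 or 2 of 7 lie near these shares. At 3 mo edgeR called 0 of 99 genes (0.0%), with 12 at an unadjusted p under 0.05 and 2 called by DESeq2, and at 6 mo Arg1 was lower (-0.90 ± 0.32, 12.1% lower) and the amino acid carrier gene Slc16a10 higher (3.43 ± 0.66, 11.1% higher), at 32.9 CPM against 3.00 CPM. The median log2 change of the 7 was -0.34, -0.43, -0.44, 0.17, 0.28 and -0.33 at the 6 later times in order, against -0.09, 0.21, 0.12, 0.07, -0.02 and -0.15 over all genes. With total-count scaling 0 of the genes of this list were called lower at 24 h, 48 h, 72 h, 14 d or 6 mo.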

How the data were processed

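The authors deposited raw counts, 1 table of genes by cells for each of 13 sections, and for 12 of them lists of transcripts with x, y and z positions. The company made them by Molecular Cartography, per the labels' protocols. Decoding, cell outlines and the coordinate unit are not given in the sources used here. Positions of section 3 of 14 d were not analysed here.

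Members and gene lists were chosen with earlier results of these data known. Named genes are the 3 members, the panel genes of the nitrogen list that passed, and per member the 3 genes with the highest correlation of log2(CPM + 1).

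Counts were summed over cells and fitted for all times together in edgeR 4.0.16 (R 4.3.3, TMM, quasi-likelihood test with robust settings, 5 residual degrees of freedom, 99 genes with at least 10 counts in 2 libraries, Benjamini-Hochberg threshold 0.05). The SE is the log2 change over the square root of F. Log2 ratios of shares (pseudocount 1e-05, tiles of at least 50 transcripts, genes with 500 in every section) were fitted per section in limma 3.58.1 (robust, trend), 24 h sections averaged. A score gene was left out of the score when tested itself. Both fits were tested on simulated data. Cells were thinned with numpy 2.4.6. Alternatives included DESeq2 1.42.0, other scalings, tiles and leaving out sections.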

Additional observations from a re-analysis of the deposited data

How the results depend on the processing

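The rise of Oat at 24 h passed under each of the 11 other settings run and without each section. The fall of Glul at 14 d passed without each section and under the settings run for it, except total-count scaling and scaling by cell number. The cause was not tested. The fit with the slide as a block left out the 14 d sections, so it gives no value for this fall. Total-count scaling gave, against 0 h, Glul at 14 d -0.76 and at 48 h 0.21, Gls2 at 48 h 1.01, 72 h 0.11, 14 d 1.36 and 6 mo 0.05, and Oat at 48 h 1.51 and 72 h 0.20. It gave 1 nitrogen gene higher and 0 lower at 24 h, 0 lower at 48 h and 72 h, 2 higher and 0 lower at 14 d and 0 lower at 6 mo. Scaling by cell number gave Glul at 48 h 0.27 and 14 d 0.0024, Gls2 at 72 h 0.60 and 14 d 2.11, and Oat at 48 h 1.57, 72 h 0.71 and 14 d 1.68. DESeq2 gave Glul at 24 h -0.0012 and 72 h -1.28, Gls2 at 14 d 0.64, 1 nitrogen gene higher at 14 d and 2 lower at 6 mo. All listed transcripts gave Glul at 24 h -0.13 and 72 h -1.13 and Gls2 at 14 d 0.83 and 6 mo 0.04. Without a filter Glul at 72 h was -1.12, Gls2 at 14 d 0.69 and at 6 mo 0.00099. The 24 h sections as 2 libraries gave Gls2 -0.78 at 24 h and 0.76 at 14 d, and the 14 d sections as 1 library gave Glul -0.10 at 24 h and -1.24 at 72 h. Only the times compared gave Glul at 24 h -0.04, and TMM without Cyp2e1 gave Glul at 72 h -1.19.

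The labels do not say whether section numbers pair the samples. Deviations of same-numbered sections correlated from -0.51 to 0.21. These values cannot decide it, since some times contrast sections of different slides and others contrast sections of the same slide. With the number as a replicate block Glul at 72 h passed at -1.11, and no other call that this fit could give changed.

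For the central-to-portal ratio, shares without Cyp2e1 gave Gls2 -0.54 and Oat -0.12 at 24 h, Gls2 -0.04 and Glul -0.42 at 48 h and Glul -2.08 at 14 d. The last of these passed. The rank correlation gave Gls2 -0.09 and Oat 0.06 at 48 h and Gls2 -0.07, Glul 0.10 and Oat 0.04 at 14 d. Tiles of 800 units gave Oat 0.05 at 48 h, Gls2 -0.10 and Oat 0.39 at 72 h and Oat -0.83 at 14 d. Gls2 at 14 d passed at 2.78 with 5 zones in place of 3, 1.97 without Cyp2e1 in the score and 2.13 with both 24 h sections, and Gls2 at 48 h passed at 1.49 with the slide as a block. For near over far, the top 10% of tiles gave Gls2 -0.68 at 24 h and 1.95 at 14 d and Oat -0.28 at 72 h, the top 2% gave Oat -0.66 at 24 h and 0.13 at 14 d and Gls2 -0.74 at 48 h and -0.08 at 72 h, and a far limit of 800 units gave Oat -0.13 at 24 h. Tiles of 400 units gave Gls2 -0.65, -0.12, -0.32 and 1.58 and Oat -0.07, 1.34 and 0.18 at 24 h, 48 h and 14 d, the Gls2 values running over 24 h, 48 h, 72 h and 14 d. A pseudocount of 1e-06, chosen after seeing the data, gave Gls2 -0.85 at 24 h.

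Leaving out 1 section at a time, the level ran for Glul -0.38 to 0.50 at 24 h, -1.21 to -0.30 at 48 h, -1.44 to -0.76 at 72 h, for Gls2 -1.18 to -0.27 at 24 h, -0.13 to 0.61 at 48 h, 0.35 to 0.96 at 14 d, 0.38 to 0.98 at 3 mo, -0.46 to 0.26 at 6 mo, for Oat -0.65 to 0.33 at 72 h, -0.24 to 0.81 at 14 d, -0.04 to 1.00 at 3 mo, -1.70 to -0.54 at 6 mo. Leaving out 1 section at a time, the central-to-portal ratio ran for Glul -0.35 to 1.19 at 48 h, -2.20 to -0.87 at 14 d, for Gls2 -0.67 to 0.99 at 24 h, -0.10 to 1.56 at 48 h, -0.54 to 1.12 at 72 h, 1.30 to 2.95 at 14 d, for Oat -0.60 to 0.10 at 48 h, -0.23 to 0.04 at 72 h, -1.41 to -1.13 at 14 d. Leaving out 1 section at a time, near over far ran for Gls2 -0.68 to 1.40 at 24 h, -0.72 to 0.80 at 48 h, 2.08 to 2.98 at 14 d, for Oat -0.53 to 0.90 at 24 h, 0.47 to 1.70 at 48 h, 0.49 to 1.71 at 72 h, -0.87 to 0.35 at 14 d.

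Oat calls against 0 h were gained at 48 h under total-count and cell-number scaling and at 14 d with cell number. There 40, 32 and 75 of 99 genes were called higher. Shares of cells moved with thinning, with values given for rich cells and for pairs. The part of depth in the sums was not tested, and Gls2 beside the ring rested on 9 and 10 transcripts at 0 h. The 24 h, 3 mo and 6 mo groups are 1 library each, and 5 residual degrees of freedom hold the level fit.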

Other observations

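Glul was also seen far from the central ring. Among cells at least 1200 units from any Glul-rich cell and thinned to 200 transcripts, those with 5 or more transcripts of the endothelial gene Pecam1 held Glul in 41.1% to 62.0% of cases per section, against 7.50% to 26.8% of the other far cells, and the share was higher in all 13 sections. In section 2 of 14 d it was 61.2% of 768 cells against 24.7% of 6873. Gls2 in the same cells was at 29.4% to 71.4%, against 27.7% to 63.9%. Oat was at 0% to 41.2%, against 3.05% to 23.6%, and was higher in the Pecam1-rich cells in 12 of 13 sections, for example 14.7% against 3.51% in section 2 of 0 h, so that the difference was not Glul's alone. Adgre1-rich cells at any distance held Glul more often than other cells in 12 of 13 sections, the exception being section 1 of 24 h with 11 such cells. These are descriptions of cell outlines, with no test.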
